A study of Mus musculus with 9 samples.

Results

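The levels of 10 basement membrane genes were followed in the RNA of spermatogonial stem cells (SSC) and of 2 kinds of induced pluripotent stem cells (iPSC). They were the type IV collagen chains Col4a1 and Col4a2, the laminin chains Lama1, Lama5, Lamb1 and Lamc1, the linkers Nid1 and Hspg2, and the matrix proteins Sparc and Fn1. The set was chosen by the measured levels of Sparc and Fn1 in the iPSC derived from SSC, where both are abundant, so the values of these 2 genes are given as a description, with no test, wherever that group enters. Each gene was found by position, from the coordinates of the deposited loci against gene coordinates of the GRCm38 mouse genome, and a gene with several loci was taken from the locus with the highest mean over the 9 libraries. All 10 were found, among 13818 genes with a locus.

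The study compared 3 groups of 3 RNA-seq libraries each. SSC were cells of testes from pups in the first postnatal week, enriched with magnetic beads for the surface receptor Gfra1 and labelled passage 0. SSCiPSC and fiPSC were clonal iPSC lines from such SSC and from fibroblasts of male fetuses at midgestation, labelled passage 10 to 11, although the study's methods name later passages. The series holds no library of those fibroblasts. A gene said to fall or rise in fiPSC against SSC therefore only differs in level between these groups. Every group carried the same alleles, Gt(ROSA)26Sortm1(rtTA*M2)Jae together with Col1a1tm3(tetO-Pou5f1,-Sox2,-Klf4,-Myc)Jae, in which doxycycline switches on 4 reprogramming factors from a cassette at the Col1a1 locus. The labels give a medium with LIF and doxycycline for all samples, whereas by the study's methods doxycycline had been withdrawn from the iPSC, which had grown on feeder cells and were sorted for SSEA1 before RNA extraction. Nothing in the labels says that libraries of a group came from separate animals or lines, so p-values measure only the spread between these libraries.

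A basement membrane is a thin sheet of matrix on which epithelia rest and which surrounds muscle, fat and blood vessels. Laminins, each made of an alpha, a beta and a gamma chain, and networks of type IV collagen form its scaffold, and nidogens and the proteoglycan perlecan link these networks. In the testis such a sheet lies between the seminiferous tubule and the peritubular myoid cells, and spermatogonial stem cells rest on it. In the early embryo, parietal endoderm is a well known producer of type IV collagen, laminin and Sparc.

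Values are FPKM, fragments per kilobase of locus and per 1000000 mapped fragments, so levels are given per length, but Col4a2 and Nid1 were measured over short loci at or near the 3′ end of the gene, and their levels do not compare directly with those of the other genes. The estimated depth, in units of 1000000 fragments, was 1.77, 4.63 and 1.39 in SSC replicates 1, 2 and 3, 15.9, 13.9 and 15.3 in SSCiPSC and 13.4, 17.7 and 15.5 in fiPSC. All 10 genes were above 1 FPKM in each library. The smallest number of fragments behind a value was estimated at 21.9, for Col4a2 in fiPSC replicate 1. The limma test was run over all loci on log2(FPKM + 1), its p-values were adjusted by the Benjamini-Hochberg method over every locus tested, and a locus was called at an adjusted p below 0.05. On this scale a log2 fold change understates the change of genes with low values.

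Sequences are shown first for the genes on which the comparisons turn. Col4a1 and Col4a2 lie head to head on chromosome 8, on opposite strands, and in the RefSeq annotation of GRCm38.p6 their transcripts start at positions 11312826 and 11312805, so that 22 bases belong to the first exon of both. That stretch, with 4 bases on each side (chr8:11312801-11312830), reads as follows on the strand of each gene, 5′ to 3′. Capitals mark GGGCGG or its reverse complement, the letters of a GC box.
Col4a1: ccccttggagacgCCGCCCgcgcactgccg
Col4a2: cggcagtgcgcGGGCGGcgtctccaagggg
The 250 bases before the start of Lama5 (chr2:180225860-180226109, minus strand) are shown because Lama5 was the laminin chain called higher in fiPSC than in SSC. Capitals mark the same letters, which occur 4 times.
Lama5: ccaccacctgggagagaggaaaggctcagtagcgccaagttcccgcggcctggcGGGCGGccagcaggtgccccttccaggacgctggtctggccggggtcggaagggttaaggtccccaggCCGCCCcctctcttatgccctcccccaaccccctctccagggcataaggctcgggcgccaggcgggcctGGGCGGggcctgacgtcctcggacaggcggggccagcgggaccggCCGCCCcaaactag

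RefSeq windows of 300 bases, from 250 before to 50 after a start, were matched for 7 of the 10 genes, namely Col4a1, Col4a2, Lama5, Lamb1, Nid1, Hspg2 and Sparc. The windows of Col4a1 and Col4a2 share 78 bases. GGGCGG on either strand was in 6 of the 7 windows, all except that of Sparc, and in 35.7% of all 32851 windows. TATAAA, the letters of a TATA box, was in none of the 7 and in 13.6% of all windows. CCAAT was in 4 of the 7 and in 37.4% of all, and CCCTCCCC in 4 of the 7 (Col4a1, Col4a2, Lama5 and Nid1) and in 10.8% of all. Matches were counted for each motif on its own, on both strands, and a match of letters is a description only. The window of Sparc begins at a start upstream of the deposited locus.

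The type IV collagen chains gave the widest differences from SSC among the 10 genes. Col4a1 (chr8:11198320-11448389, minus strand), the alpha1 chain of the collagen found in nearly all basement membranes, was at 137, 94.8 and 158 FPKM in SSC, at 11.5, 5.65 and 9.83 FPKM in SSCiPSC and at 6.68, 4.86 and 6.49 FPKM in fiPSC. Col4a2, the alpha2 chain that joins with it in the same triple helix, was at 90.9, 69.5 and 110 FPKM in SSC, at 5.75, 2.87 and 3.89 FPKM in SSCiPSC and at 2.73, 3.27 and 3.01 FPKM in fiPSC. For both genes every SSC library was above every iPSC library, and SSC replicate 2 was the lowest of its group.

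The mean of Col4a1 was 14.5-fold lower in SSCiPSC than in SSC (log2 fold change of -3.73 ± 0.30 (SE), limma adjusted p = 0.000229) and 21.6-fold lower in fiPSC than in SSC (-4.20 ± 0.22, limma adjusted p = 7.4e-05). Col4a2 was 21.6-fold lower in SSCiPSC (-4.15 ± 0.27, limma adjusted p = 0.000125) and 30.0-fold lower in fiPSC (-4.49 ± 0.19, limma adjusted p = 4.1e-05). Between both kinds of iPSC the log2 fold change, fiPSC against SSCiPSC, was -0.47 ± 0.26 for Col4a1 and -0.33 ± 0.24 for Col4a2, with overlapping groups and no call. The values of Col4a2 come from the last 762 bases of the gene (chr8:11448527-11449288), a locus with no strand of which 761 bases are exonic. The longer plus-strand locus of Col4a2, whose interval is that of Col4a1, held 57.0, 42.9 and 57.6 FPKM in SSC, from 1.76 to 3.92 FPKM in SSCiPSC and from 1.70 to 2.27 FPKM in fiPSC. With that locus the log2 fold changes against SSC were -3.82 for SSCiPSC and -4.16 for fiPSC, and both were called.

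**Figure D1:**
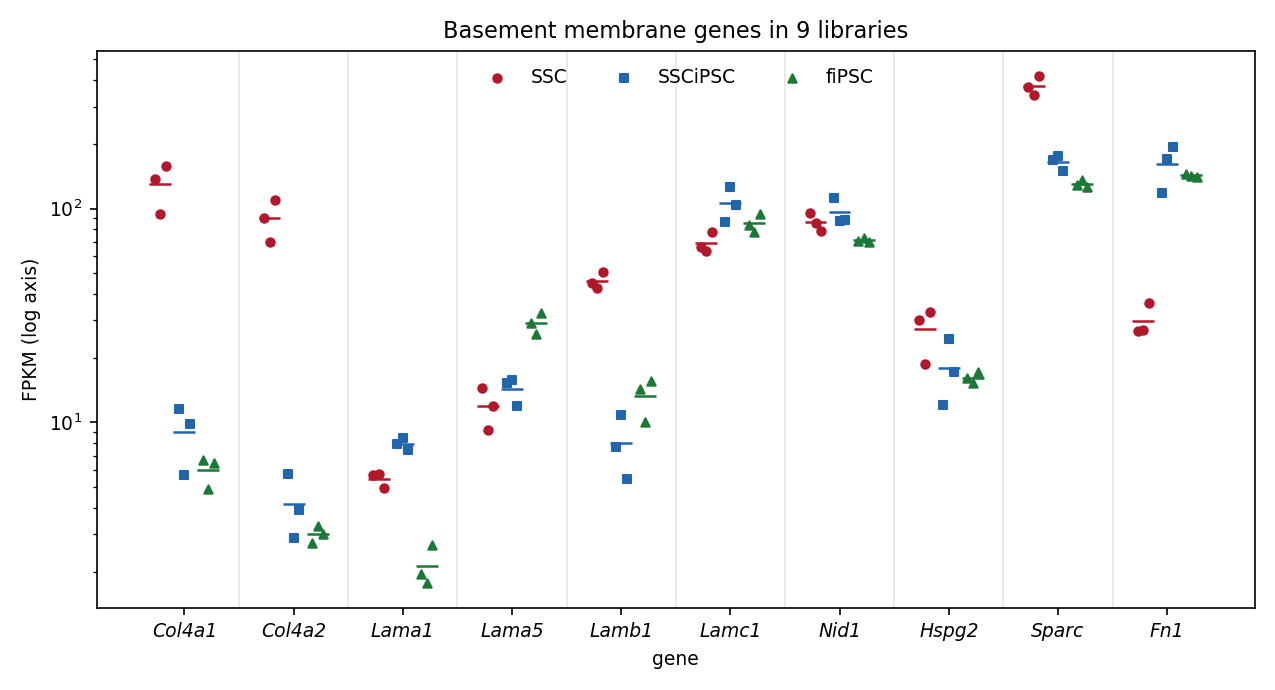
FPKM of each gene on a log axis, with 1 point per library and a bar at the mean of the 3 libraries of SSC, SSCiPSC and fiPSC. Col4a1 and Col4a2 stood above 69 FPKM in every SSC library and below 12 FPKM in every iPSC library, Fn1 stood the other way round, and Lama1 and Lama5 parted SSCiPSC from fiPSC.

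Laminin alpha chains carry the globular domain that cells bind, and Lama1 and Lama5 are the main alpha chains of the early embryo. Lama1 (chr17:67695705-67822730, plus strand) was at 5.67, 5.72 and 4.91 FPKM in SSC, at 7.89, 8.43 and 7.40 FPKM in SSCiPSC and at 1.95, 1.78 and 2.66 FPKM in fiPSC. The 3 groups of Lama1 did not overlap, with SSCiPSC highest and fiPSC lowest. Lama1 fell in fiPSC against SSC, by 2.55-fold (log2 fold change of -1.05 ± 0.22, limma adjusted p = 0.00775), and its log2 fold change in SSCiPSC against SSC was 0.47 ± 0.19 (limma adjusted p = 0.0785). The latter was called in 3 of 17 alternatives, at a limma adjusted p of 0.0284 with median-ratio scaling, 0.0478 with quantile normalization and 0.0414 with 1 locus per gene. Between the iPSC groups the mean of Lama1 was 3.71-fold lower in fiPSC than in SSCiPSC, with a log2 fold change of -1.52 ± 0.18, and the limma adjusted p was 0.0622 (unadjusted 5.0e-05). The difference between the iPSC groups was called in 2 of 17 alternatives, at an adjusted p of 0.0488 without a trend in the variance and of 0.0371 with 1 locus per gene.

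Lama5 (chr2:180171363-180225965, minus strand) was at 14.5, 9.27 and 12.0 FPKM in SSC, at 15.4, 15.8 and 11.9 FPKM in SSCiPSC and at 29.1, 25.9 and 32.4 FPKM in fiPSC. Values of SSC and SSCiPSC overlapped, and every fiPSC library was above all others. Lama5 rose by 2.45-fold in fiPSC against SSC (log2 fold change of 1.24 ± 0.19, limma adjusted p = 0.00209). The mean was 2.03-fold higher in fiPSC than in SSCiPSC (0.98 ± 0.15), which was not called (limma adjusted p = 0.129, unadjusted 0.000315).

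Lamb1, the beta chain of most laminins of the embryo, and Lamc1, the gamma chain shared by most laminins, differed in pattern. Lamb1 (chr12:31265058-31330717, plus strand) was at 44.9, 42.6 and 50.5 FPKM in SSC, at 7.67, 10.8 and 5.47 FPKM in SSCiPSC and at 14.3, 10.1 and 15.6 FPKM in fiPSC. Lamc1 (chr1:153218821-153333049, minus strand) was at 66.1, 63.5 and 78.2 FPKM in SSC, at 87.1, 127 and 105 FPKM in SSCiPSC and at 84.2, 77.6 and 94.4 FPKM in fiPSC. All SSC libraries had more Lamb1 than any iPSC library, whereas Lamc1 was among the more abundant genes in every group.

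Lamb1 fell by 5.76-fold in SSCiPSC (log2 fold change of -2.43 ± 0.24, limma adjusted p = 0.000436) and by 3.46-fold in fiPSC (-1.73 ± 0.18, limma adjusted p = 0.000507), both against SSC. Lamc1 rose by 1.53-fold in SSCiPSC against SSC (0.60 ± 0.17, limma adjusted p = 0.0280), but with quantile normalization its log2 fold change was -0.21, with no call. The call of Lamc1 was also lost without a trend in the variance (adjusted p = 0.0604) and without SSC replicate 1, SSC replicate 2, SSCiPSC replicate 2 or SSCiPSC replicate 3 (adjusted p from 0.0734 to 0.0883). In fiPSC against SSC the log2 fold change of Lamc1 was 0.30 ± 0.13 (limma adjusted p = 0.0926), and it was called without SSC replicate 3 (adjusted p = 0.0422) and with median-ratio scaling (adjusted p = 0.0149).

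Ratios between partner chains were taken within each library, so that a scaling factor of the library cancels. The ratio of Lama1 to Lama5 was 0.392, 0.618 and 0.411 in SSC, 0.514, 0.534 and 0.620 in SSCiPSC and 0.0672, 0.0688 and 0.0819 in fiPSC. Lama1 was thus from 28.2% to 38.3% of the summed FPKM of both alpha chains in SSC and SSCiPSC and from 6.30% to 7.57% in fiPSC. The ratio of Lamb1 to Lamc1 was 0.680, 0.671 and 0.646 in SSC, 0.0881, 0.0855 and 0.0523 in SSCiPSC and 0.169, 0.130 and 0.165 in fiPSC, and these 3 groups did not overlap.

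The ratio of Col4a1 to Col4a2 was 1.51, 1.36 and 1.44 in SSC, from 1.97 to 2.53 in SSCiPSC and 2.45, 1.49 and 2.16 in fiPSC. This ratio sets a whole gene against the end of another, and with the summed loci of both genes it was from 0.844 to 0.943 in SSC, from 1.19 to 1.44 in SSCiPSC and from 0.978 to 1.42 in fiPSC. With the longer plus-strand locus of Col4a2, added after seeing the data, it was from 2.21 to 2.75 in SSC, from 2.94 to 3.35 in SSCiPSC and from 2.86 to 3.36 in fiPSC. With the summed loci and with the plus-strand locus, fiPSC did not overlap SSC. Of the 9 tests (3 ratios in 3 comparisons), 6 reached the smallest p that an exact two-sided permutation test of 3 against 3 libraries allows, 0.1, and the Benjamini-Hochberg value of each of those 6 was 0.15. This exact test therefore cannot pass 0.05 at 3 libraries a group. The mean log2 ratio of Lama1 to Lama5 was lower in fiPSC by 2.94 than in SSCiPSC and by 2.68 than in SSC, and that of Lamb1 to Lamc1 was lower than in SSC by 3.18 in SSCiPSC and by 2.11 in fiPSC.

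**Figure D2:**
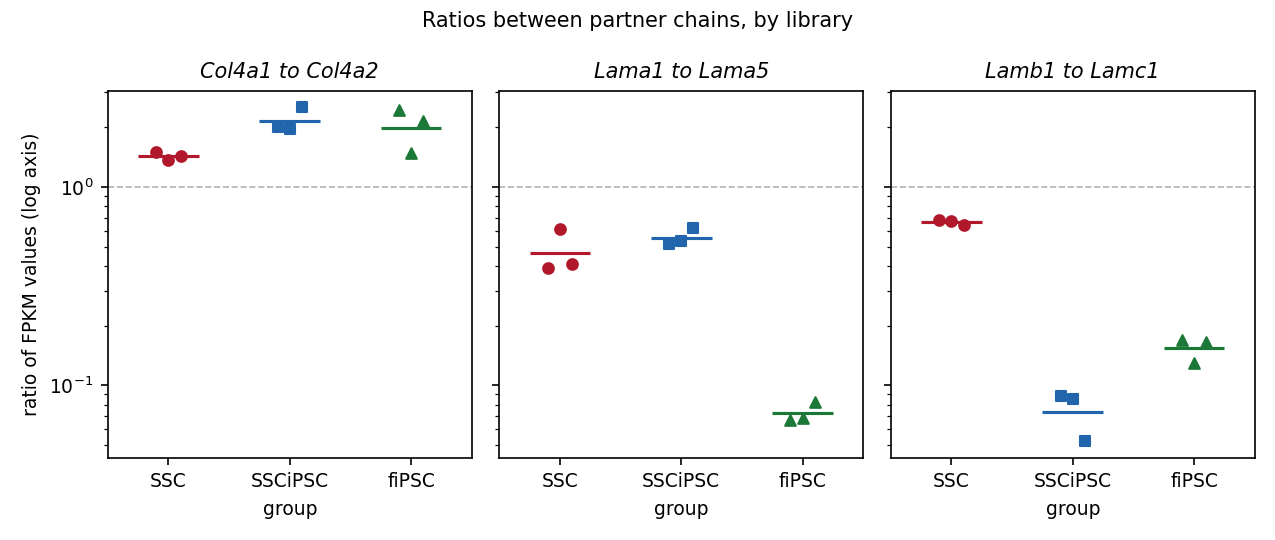
Ratio of the FPKM values of 2 partner chains on a log axis, with 1 point per library, a bar at the geometric mean of 3 libraries and a dashed line at equal values. The ratio of Lama1 to Lama5 lay below 0.1 in the 3 fiPSC libraries and above 0.39 in the other 6, and the ratio of Lamb1 to Lamc1 was highest in SSC and lowest in SSCiPSC.

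The linkers between the networks were Nid1 and Hspg2. Nid1 (chr13:13507423-13510237, plus strand), nidogen 1, which bridges laminin and type IV collagen, was at 95.3, 85.8 and 79.0 FPKM in SSC, at 112, 87.9 and 88.8 FPKM in SSCiPSC and at 70.8, 72.8 and 69.8 FPKM in fiPSC. Nid1 lay in 3 deposited loci, and this one holds 693 exonic bases near the 3′ end of the gene. At this locus the 3 fiPSC libraries were below all others, with a log2 fold change of -0.28 ± 0.10 against SSC (limma adjusted p = 0.0611) and of -0.42 ± 0.12 against SSCiPSC (limma adjusted p = 0.296). Against SSC that difference was called in 4 of 17 alternatives, at a limma adjusted p of 0.0361 without SSC replicate 3, 0.0468 with a mean of at least 5 FPKM, 0.0441 with 1 locus per gene and 0.00171 with quantile normalization. Its log2 fold change was -0.99 with quantile normalization and -0.040 with median-ratio scaling. The log2 fold change of Nid1 in SSCiPSC against SSC was 0.14 ± 0.15 with overlapping groups, and with quantile normalization it was -0.72, which was called (adjusted p = 0.0154). At both other loci of Nid1, fiPSC overlapped SSC and stayed below every SSCiPSC library. The longest locus held 37.0, 20.2 and 33.3 FPKM in SSC and 29.4, 28.9 and 31.3 FPKM in fiPSC. The last locus held 42.9, 31.3 and 40.0 FPKM in SSC and 36.3, 39.1 and 38.0 FPKM in fiPSC.

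Hspg2 (chr4:137468782-137570941, plus strand) encodes perlecan, the large heparan sulfate proteoglycan of basement membranes. It was at 30.3, 18.7 and 32.8 FPKM in SSC, at 12.0, 24.5 and 17.2 FPKM in SSCiPSC and at 16.1, 15.3 and 17.2 FPKM in fiPSC. SSC and SSCiPSC overlapped (log2 fold change of -0.59 ± 0.32, limma adjusted p = 0.165), and every fiPSC library was below every SSC library. Hspg2 fell by 1.68-fold in fiPSC against SSC (-0.68 ± 0.22, limma adjusted p = 0.0427), a call that was lost in 9 of 17 alternatives. Among these were the fits without SSC replicate 1, SSC replicate 3 or any 1 of the fiPSC libraries, with adjusted p from 0.0942 to 0.131.

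Sparc and Fn1 had the highest means of the 10 genes in both kinds of iPSC. Sparc (chr11:55394426-55410092, minus strand), a calcium-binding matrix protein that binds collagen IV, was at 372, 340 and 417 FPKM in SSC, at 169, 176 and 150 FPKM in SSCiPSC and at 129, 137 and 127 FPKM in fiPSC. Fn1 (chr1:71585244-71654506, minus strand), fibronectin, a ligand of integrins, was at 26.8, 26.9 and 36.2 FPKM in SSC, at 118, 170 and 195 FPKM in SSCiPSC and at 146, 142 and 141 FPKM in fiPSC. So Sparc was highest in SSC and Fn1 lowest there, without overlap between SSC and iPSC for either gene.

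In fiPSC against SSC, a comparison without the SSCiPSC libraries, Sparc fell by 2.88-fold (log2 fold change of -1.51 ± 0.11, limma adjusted p = 0.000167) and Fn1 rose by 4.78-fold (2.23 ± 0.14, limma adjusted p = 0.000113). The log2 fold change of Sparc was -2.51 with quantile normalization. The levels of both genes in fiPSC lay near those in SSCiPSC, so the choice by SSCiPSC can still bear on these calls. As a description, the mean of Sparc was 2.28-fold lower and that of Fn1 5.37-fold higher in SSCiPSC than in SSC, and between the iPSC groups the means were 131 against 165 FPKM for Sparc and 143 against 161 FPKM for Fn1. Sparc stood at rank 40 of 13818 genes by mean level in SSC, 411 in SSCiPSC and 494 in fiPSC. For Fn1 the ranks were 2367, 428 and 438.

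Counted together, 4 of the 8 genes not used for the choice were called in SSCiPSC against SSC, where 50.3% of all 36544 loci tested were called. Of these, 3 were lower (Col4a1, Col4a2 and Lamb1, with 24.1% of all loci lower) and 1, Lamc1, was higher (26.2% of all loci). There was no overlap between SSCiPSC and SSC for 5 of the 8, against 59.8% of all loci. In fiPSC against SSC, 8 of 10 were called, against 51.8% of 38007 loci, with 6 lower (23.7% of all loci lower) and 2 higher, Lama5 and Fn1 (28.0% higher). Among these 8 were Sparc and Fn1, on which the choice of the genes can bear. All except Lamc1, 9 of 10, had no overlap between fiPSC and SSC, against 61.6% of all loci. For Nid1 this held only at the locus chosen here. The median log2 fold change of the 8 genes in SSCiPSC was -0.22, beside 0.11 over all loci, and that of the 10 in fiPSC was -0.86, beside 0.17. The median in SSCiPSC depended on the scaling, at -0.80 with quantile normalization and 0.0092 with median-ratio scaling. Both comparisons share the SSC libraries.

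Between fiPSC and SSCiPSC, limma called none of the 8 genes, where 0.0678% of 33948 loci (23 loci) were called. At an unadjusted p below 0.05 there were 4 of 8 (Lama1, Lama5, Lamb1 and Nid1), against 11.7% of all loci. Values of both groups stood apart for 3 of 8 (Lama1, Lama5 and Nid1), against 18.6% of all loci. A p above the threshold does not show that the other genes had equal levels.

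**Figure D3:**
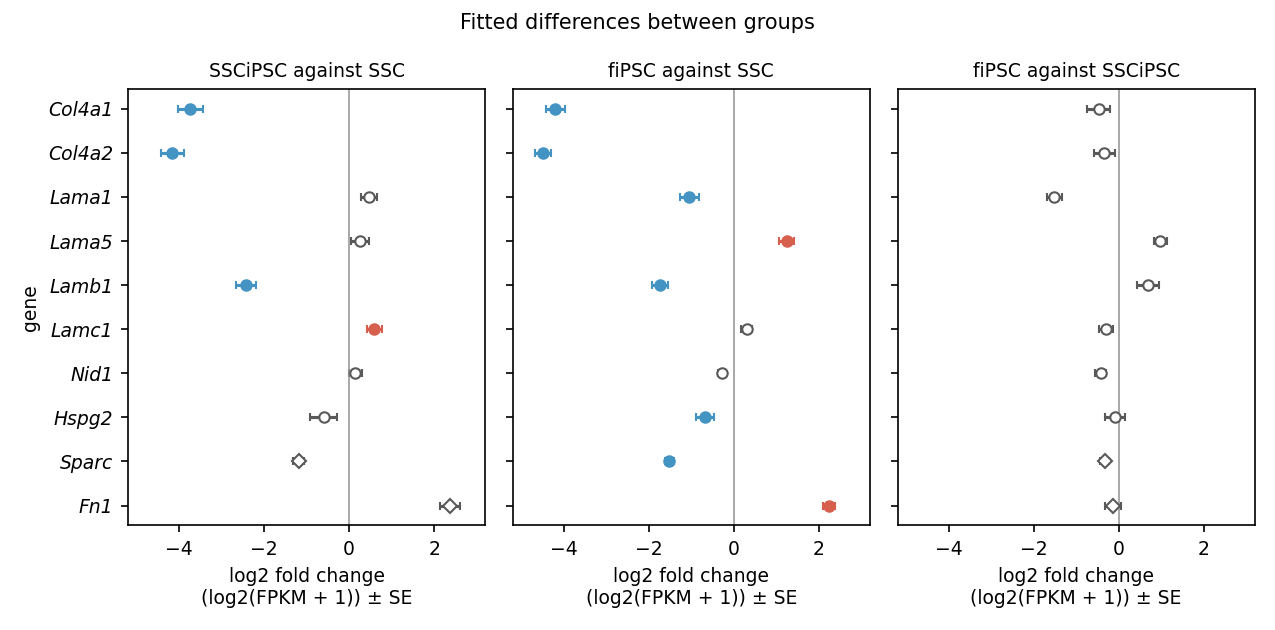
Log2 fold change of each gene on the log2(FPKM + 1) scale, with bars of 1 SE, for the 3 comparisons of 3 libraries against 3. Filled points are called at an adjusted p below 0.05 (blue lower, red higher), open circles are not called, and open diamonds mark Sparc and Fn1 where the choice of the genes used the group. Col4a1, Col4a2 and Lamb1 lay left of 0 against SSC in both kinds of iPSC, and none of the circles of the last comparison is filled.

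By level within a group, with the loci chosen here, the order in SSC was Sparc, Col4a1, Col4a2, Nid1, Lamc1, Lamb1, Fn1, Hspg2, Lama5 and Lama1. Neighbours overlapped there for Col4a1 with Col4a2, Col4a2 with Nid1 and Fn1 with Hspg2. In SSCiPSC the order was Sparc, Fn1, Lamc1, Nid1, Hspg2, Lama5, Col4a1, Lamb1, Lama1 and Col4a2, and the only neighbours without overlap were Nid1 above Hspg2, Lama5 above Col4a1 and Lama1 above Col4a2. In fiPSC the order was Fn1, Sparc, Lamc1, Nid1, Lama5, Hspg2, Lamb1, Col4a1, Col4a2 and Lama1, with overlap only of Hspg2 and Lamb1. The places of Nid1 and Col4a2 depended on the locus. The other 2 loci of Nid1 were from 20.2 to 42.9 FPKM in SSC, from 35.0 to 57.6 FPKM in SSCiPSC and from 28.9 to 39.1 FPKM in fiPSC, in SSC below every library of Lamc1, as was the longer locus of Col4a2. In fiPSC the longest locus of Nid1 overlapped Lama5, and the longer one of Col4a2 overlapped Lama1. The summed FPKM of the 10 genes was from 757 to 979 in SSC, from 547 to 629 in SSCiPSC and from 491 to 510 in fiPSC.

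The genes most like Sparc and Fn1 in pattern were sought among 6315 other genes with a mean of at least 10 FPKM, by the root mean square difference between centred log2(FPKM + 1) profiles over the 9 libraries. For Sparc these were Hspa13 (0.0966), Arntl (0.105), Tgoln1 (0.110), Cfl2 (0.120) and Exoc5 (0.127). For Fn1 they were Zfp706 (0.104), Cyb5b (0.111), Slc38a1 (0.136), Ube2c (0.155) and Eef1b2 (0.163). None of the basement membrane genes described here was among the 5 of either. Those with a mean below 10 FPKM, among them Lama1, Smoc1 and Col4a3, were not among the genes searched.

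Other components of basement membranes differed in both directions. Of 26 such genes, 25 had a locus and 21 passed the filter on low values against SSC, of which 11 reached 1 FPKM in SSC libraries only, so that the filter fixed their direction. In SSCiPSC against SSC, 14 were lower, 3 higher and 4 not called, and the counts were the same in fiPSC against SSC. Over all loci, 24.1% were lower and 26.2% higher in SSCiPSC, and 23.7% lower and 28.0% higher in fiPSC. The median log2 fold change of those tested was -2.07 in SSCiPSC and -2.10 in fiPSC, beside 0.11 and 0.17 over all loci. Of the 11 with a mean of at least 5 FPKM, 5 were lower in SSCiPSC and 6 in fiPSC, 3 were higher in each, and the medians were -0.44 and -0.64. The lower ones still included 3 that reached 1 FPKM in SSC libraries only, Col4a3, Lama2 and Smoc2. The others lower in SSCiPSC, Tinagl1 and Fbln2, had means below 5 FPKM in both iPSC groups. All of these passed the cut, on the mean over 9 libraries, only through SSC. The cut thus fixed the direction of every gene lower in SSCiPSC. Except Tinagl1, they were named after their values were seen. Nid2, nidogen 2, was at 31.8, 25.4 and 21.9 FPKM in SSC, from 76.1 to 90.8 FPKM in SSCiPSC and from 77.8 to 81.8 FPKM in fiPSC, with log2 fold changes of 1.66 and 1.57 against SSC (limma adjusted p = 0.000484 and 0.000364). Agrn, agrin, a heparan sulfate proteoglycan, and Fbln1, fibulin 1, also rose in both. Agrn had a log2 fold change of 1.98 in both and Fbln1 of 0.83 and 0.94.

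Tinagl1, a matrix protein that binds integrins, fell from 91.5, 72.4 and 137 FPKM in SSC to between 1.02 and 2.57 FPKM in the 6 iPSC libraries (log2 fold changes of -5.23 and -5.09). Col18a1, the collagen that holds endostatin, and Smoc1 were not called in either comparison, and Col18a1, with the highest mean of the list over the 9 libraries, was at 91.8, 76.6 and 83.9 FPKM in SSC. Col4a3, Col4a4 and Col15a1, picked here after their values were seen, were listed at 0 in all 6 iPSC libraries, and Col4a3 was at 17.0, 28.2 and 7.28 FPKM in SSC. The values of Col4a3 came from a short locus with no strand (chr1:82721151-82721406), where a value can rest on few fragments. Between the iPSC groups, limma called none of the 10 that passed the filter, and 2 had an unadjusted p below 0.05, beside 0.0678% and 11.7% of all loci.

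**Figure D4:**
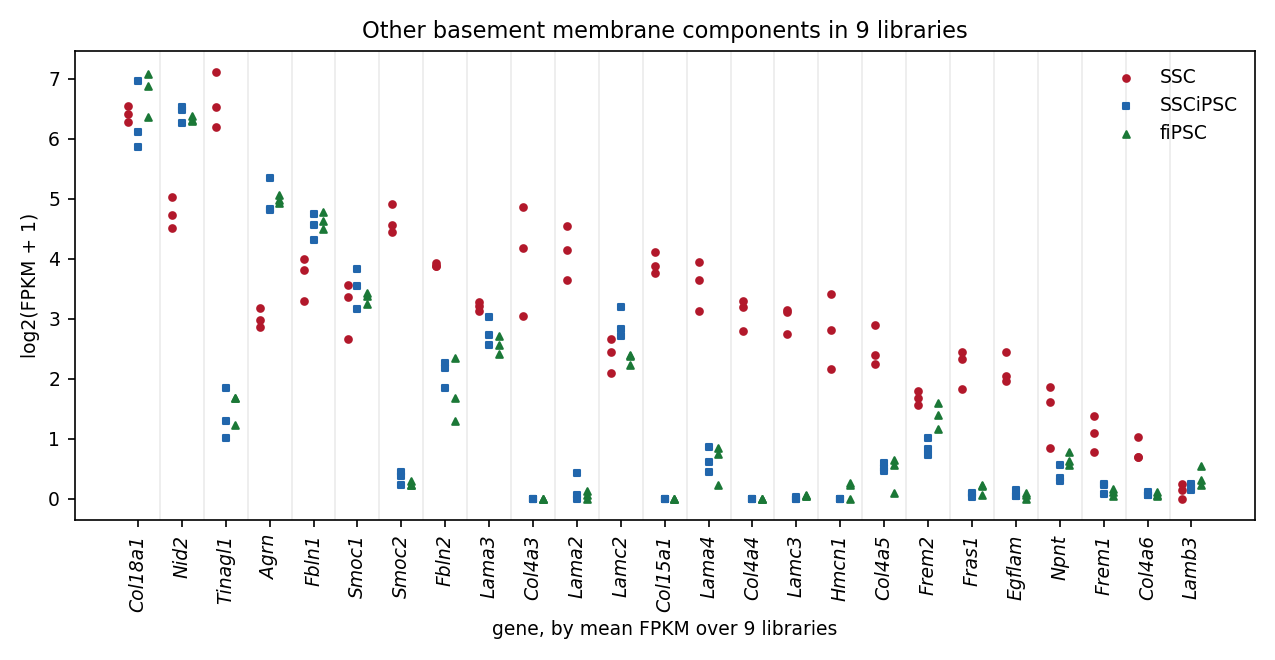
Level of 25 other basement membrane genes as log2(FPKM + 1), ordered by mean FPKM over 9 libraries, with 1 point per library of SSC, SSCiPSC and fiPSC. Nid2, Agrn and Fbln1 stood higher in the iPSC libraries than in SSC, Col4a3 and Col15a1 stood at 0 in the iPSC libraries, and Tinagl1 stood lower in them than in SSC.

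Most enzymes and chaperones that fold and crosslink collagen and laminin were not called. All 16 were tested against SSC, and in each of both comparisons 2 were higher, 3 lower and 11 not called, beside 50.3% and 51.8% of all loci called, with median log2 fold changes of 0.11 in SSCiPSC and 0.08 in fiPSC. Of the 3 lower, 1 reached 1 FPKM in SSC libraries only, which fixed its direction. With quantile normalization the medians were -0.42 and -0.36, with 6 lower in each and 1 higher in SSCiPSC and 3 in fiPSC. Ppib, P4hb and Serpinh1, which act on collagen in the endoplasmic reticulum, were not called, and P4hb was from 166 to 197 FPKM in SSC and from 195 to 221 FPKM in iPSC. Colgalt1, a galactosyltransferase for collagen, rose (log2 fold changes of 1.40 in SSCiPSC and 1.36 in fiPSC), and Plod2, a lysyl hydroxylase, fell (-1.24 and -0.84). P4ha1, a prolyl hydroxylase subunit, was not called. Between the iPSC groups none of 15 was called by limma (1 at an unadjusted p below 0.05, beside 11.7% of all loci).

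Receptors for these proteins included lower, higher and uncalled genes. Of 20 tested in SSCiPSC against SSC, 15 were lower, 1 higher and 4 not called, and of 21 in fiPSC against SSC, 15 were lower, 2 higher and 4 not called. Over all loci, 24.1% and 23.7% were lower. The medians were -1.40 and -1.53 on the log2 scale, beside 0.11 and 0.17 over all loci. In each comparison 4 of the lower receptors reached 1 FPKM in SSC libraries only, which fixed their direction. Of the 12 with a mean of at least 5 FPKM, 8 were lower and 1 higher. The lower ones included Itga9 and Ddr1, named after their values were seen, with means below 5 FPKM in both iPSC groups. Itga9 and Ddr1 passed that cut only through SSC, which fixed their direction. Itga6, the integrin alpha chain that binds laminin with Itgb1 or Itgb4, was at 66.7, 80.6 and 77.7 FPKM in SSC, from 84.0 to 92.6 FPKM in SSCiPSC and from 71.5 to 75.1 FPKM in fiPSC, with no call. Itgb1 fell (log2 fold changes of -0.95 and -0.77), and so did Dag1, dystroglycan (-1.25 and -1.09), Itgav (-2.65 and -2.64) and the syndecan Sdc4 (-3.43 and -2.18). Bcam, a receptor of laminins with the alpha5 chain, rose (2.28 and 2.06). None of 14 was called between the iPSC groups by limma, and 2 had an unadjusted p below 0.05, beside 11.7% of all loci.

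Proteases and their inhibitors were lower in iPSC or not called. Against SSC, 12 of 15 tested were lower in SSCiPSC and 13 of 15 in fiPSC, and none was higher, with median log2 fold changes of -2.46 and -2.34, beside 24.1% and 23.7% of all loci lower. In each comparison 4 of them reached 1 FPKM in SSC libraries only, which fixed their direction. Of the 12 with a mean of at least 5 FPKM, 10 were lower in SSCiPSC and 11 in fiPSC. The lower ones still included 2 that reached 1 FPKM in SSC libraries only, Bmp1 and Plau. Mmp2, Timp3 and Adamts1, also lower, had means below 5 FPKM in both iPSC groups. All of these passed that cut only through SSC, which fixed their direction. Except Adamts1, they were named after their values were seen. The protease Adamts1 fell (log2 fold changes of -4.75 in SSCiPSC and -4.78 in fiPSC), as did the cathepsin Ctsl (-2.29 and -2.17) and the protease Htra1 (-1.21 and -2.26). Timp1, an inhibitor of matrix metalloproteases, had log2 fold changes of -0.79 and -0.86, of which that in fiPSC was called, and the cathepsin Ctsb was not called. Between the iPSC groups limma called none of 11 (2 at an unadjusted p below 0.05, beside 11.7% of all loci).

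Markers of germ line cells and of other cells were also followed in the libraries. The SSC libraries held the germ line markers Gfra1 (37.7, 34.1 and 23.9 FPKM), named because the labels give it as the sorting marker and after its values were seen, and Dazl (194, 263 and 174 FPKM), and all 12 germ line markers with a locus reached 1 FPKM in each SSC library. They also held all 11 Sertoli markers with a locus, with a summed level from 1336 to 1604 FPKM led by Clu, and all 5 Leydig markers, with 910, 533 and 1014 FPKM in replicates 1, 2 and 3 led by Star. Star, at 745, 401 and 759 FPKM, made up most of each Leydig sum and came from a very short locus with no strand (chr8:25814587-25814743). The endothelial markers summed to 122, 58.5 and 99.7 FPKM, the macrophage markers to 64.6, 23.8 and 198 FPKM and the fibroblast markers to 186, 175 and 490 FPKM in SSC replicates 1, 2 and 3. Acta2 led the 4 peritubular myoid markers, which summed to between 69.4 and 87.3 FPKM. The endothelial sums of the iPSC overlapped those of SSC. They were from 85.1 to 130 FPKM in SSCiPSC and from 88.9 to 109 FPKM in fiPSC, led by Pecam1.

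SSC replicate 2, which was the lowest SSC library for Col4a1, Col4a2, Lama5, Lamb1, Lamc1, Hspg2 and Sparc, was also the lowest for the Leydig, endothelial, macrophage and fibroblast sums and the highest for the Sertoli and germ line sums. It was the highest SSC library for Lama1 and lay in the middle for Nid1, Fn1 and the myoid sum. It was also the deepest SSC library. Of 11 Sertoli, 5 Leydig and 7 macrophage markers, 10, 5 and 6 were lower in SSCiPSC than in SSC, and in fiPSC 9, 5 and 5, beside 24.1% and 23.7% of all loci lower. Of these, 7, 4 and 6 reached 1 FPKM in SSC libraries only in the comparison with SSCiPSC, and 6, 4 and 3 in that with fiPSC, so the filter fixed their direction. Without any 1 fiPSC library, 1 macrophage marker was called lower in fiPSC, and without SSC replicate 1 it was 3. The fibroblast list had 9 of 13 lower in both comparisons, the myoid list 2 of 4, the endothelial list 4 of 7 with Pecam1 higher, and the germ line list 8 of 12 lower and 4 higher. Of the lower ones, 1 myoid, 4 endothelial and 3 germ line markers reached 1 FPKM in SSC libraries only in each comparison, and the filter fixed their direction too. The part of these cells in the lower type IV collagen and Lamb1 was not tested. In these bulk samples, fewer cells of a type and less RNA per cell cannot be told apart.

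In the iPSC, all 10 pluripotency markers with a locus reached 1 FPKM in each library and were higher than in SSC in both comparisons, with Pou5f1 from 579 to 877 FPKM. Pou5f1, Sox2 and Klf4 are also in the doxycycline cassette, and RNA of the cassette was not told apart from that of the genes themselves. Of all loci, 26.2% were higher in SSCiPSC and 28.0% in fiPSC, and 6 of the 10 markers reached 1 FPKM in iPSC libraries only, so the filter fixed their direction. Parietal and primitive endoderm markers summed to between 9.48 and 33.3 FPKM in SSCiPSC and between 10.5 and 18.4 FPKM in fiPSC, and at most 3 of 16 reached 1 FPKM in a library. Of the 9 tested in SSCiPSC and the 8 tested in fiPSC against SSC, 7 were lower and 1 higher in each, beside 24.1% and 23.7% of all loci lower and 26.2% and 28.0% higher. Of these 7 lower markers, 5 in the comparison with SSCiPSC and 6 in that with fiPSC reached 1 FPKM in SSC libraries only. Afp and Ttr were at 0 in all 6 iPSC libraries, and Gata4 was at most at 0.351 FPKM. The most abundant endoderm marker in fiPSC was Lrp2, at 13.6, 7.38 and 14.4 FPKM, which was higher than in SSC. In SSC the endoderm markers summed to 647, 172 and 137 FPKM, with Thbd at 577, 110 and 0 FPKM and Srgn at 6.48, 14.3 and 62.7 FPKM. Thbd was read from a very short locus with no strand (chr2:148405136-148405264), where a value can rest on few fragments. The order of these sums between replicates depended on that locus. Which cells of the SSC libraries held the RNA of these markers was not tested.

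Fibroblast or feeder markers were low in iPSC and varied between libraries. They summed to 41.0, 29.4 and 56.4 FPKM in SSCiPSC and to 46.1, 17.3 and 57.2 FPKM in fiPSC, and Col3a1 led the list. The fiPSC library with the lowest sum, replicate 2, had 142 FPKM of Fn1, between the 141 and 146 FPKM of the other 2, and 137 FPKM of Sparc, the highest of its group. It was also the highest of its group for Col4a2 and Nid1 and the lowest for Col4a1, Lama1, Lama5, Lamb1, Lamc1 and Hspg2. SSCiPSC replicate 2, with the lowest sum of that group, was the lowest for Col4a1, Col4a2 and Nid1 and the highest for Lama1, Lama5, Lamb1, Lamc1, Hspg2 and Sparc. The part of feeder cells in these levels was not tested.

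**Figure D5:**
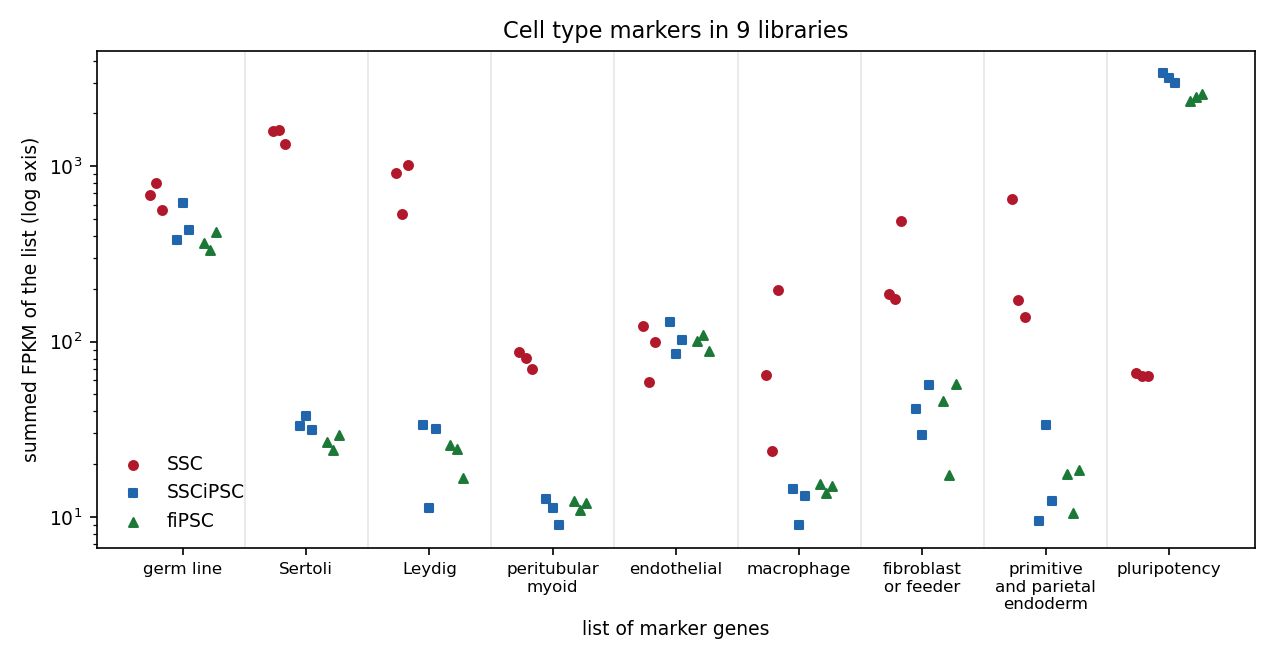
Summed FPKM of each list of marker genes on a log axis, with 1 point per library of SSC, SSCiPSC and fiPSC. Sertoli and Leydig sums were at least 533 FPKM in every SSC library and below 40 FPKM in every iPSC library, and endoderm sums stayed below 34 FPKM in the iPSC libraries.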

How the data were processed

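RNA-seq of 9 libraries was analysed, 3 each of SSC, SSCiPSC and fiPSC, grouped by the source names in the labels. Per the submitters' processing notes, reads were trimmed with Trimmomatic 0.32, aligned with TopHat2 2.0.9 and Bowtie2 2.1.0 and quantified with Cufflinks 2.2.1 and Cuffdiff, and the authors deposited 1 table of FPKM values for 54914 loci. Those notes name the build mm9, but the loci matched genes in GRCm38 coordinates. The labels name both a kit that removes ribosomal RNA and a stranded mRNA kit. The deposited whole-number counts of features in the authors' object were not used. The table's own gene names were not used.

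Of the loci, 1 with a blank value was left out. Rows stand in blocks by strand, which gave each locus its strand. Of loci with both ends within 300 bp of those of a gene, 98.1% had that gene's strand (2978 against 59). Loci overlapping a GENCODE M21 gene by at least 50% were named, which gave 21226 loci of 13818 genes. The lists held 12 genes without a locus (Lamb2, Timp2, Amh, Tagln, Actg2, Egfl7, Hsd3b1, Insl3, Lyz2, Bcl6b, Dppa5a and Utf1), which were not analysed here, and values of 1 listed gene are not reported here. Depth was estimated from the steps between low FPKM values, after subtracting 160 bp from a locus, and 1 fragment per kilobase was worth 0.565, 0.216 and 0.722 FPKM in SSC and at most 0.0748 FPKM in iPSC. It gives counting error only.

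Groups were compared with limma 3.58.1 in R 4.3.3 (eBayes with a trend) after adding 1 to each FPKM value and taking log2. Each fit held the 6 libraries of 2 groups and every locus that reached 1 FPKM in 3 or more. The test was checked on simulated data. No count model fits FPKM, and none was run. Ratios of chains were tested with scipy 1.17.1. Genes named from a list were at most the 6 with the highest mean, and markers at 0. The exceptions were Gfra1, Col4a3, Col4a4, Col15a1, Lama2, Smoc2, Fbln2, Bmp1, Plau, Mmp2, Timp3, Itga9 and Ddr1. The members and lists were chosen with earlier results of these data known. Alternatives were a pseudocount of 0.1, no filter, a mean of at least 5 FPKM, median-ratio scaling, quantile normalization, no trend, a single fit of all 9 libraries, replicate number as block, 1 locus per gene, summed loci of a gene and each library left out. Loci of a strand only were added after seeing the data.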

Additional observations from a re-analysis of the deposited data

Results flagged for a closer look

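Lama1 was the only one of the 10 genes whose levels lay apart from SSC in opposite directions in SSCiPSC and fiPSC. Every SSCiPSC library was above and every fiPSC library below all SSC libraries. The difference of SSCiPSC from SSC was not called (log2 fold change of 0.47, limma adjusted p = 0.0785). As fiPSC came from fibroblasts, their difference from SSC is not a change from the cell of origin. The difference between both comparisons with SSC equals the difference between fiPSC and SSCiPSC, a log2 fold change of -1.52 ± 0.18 (SE), with a limma adjusted p of 0.0622. Over 17 alternatives that value was from -1.86 to -1.44 and its adjusted p from 0.0371 to 0.366. The estimated fragments behind Lama1 were from 63.7 to 248 in SSC, from 1063 to 1174 in SSCiPSC and from 245 to 385 in fiPSC. No test of single outlying libraries was run.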

How the results depend on the processing

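Col4a1, Col4a2 and Lamb1 against SSC in both kinds of iPSC, and Lama1, Lama5, Sparc and Fn1 in fiPSC against SSC, kept their direction and their call in all 17 alternatives. Of the 17, loci of a strand only could change the value of Col4a2 alone, and summed loci the values of Col4a2 and Nid1 alone. The genes called numbered from 3 to 5 of 8 in SSCiPSC against SSC (3 to 4 with a library left out) and from 7 to 9 of 10 in fiPSC against SSC (7 to 9). Between fiPSC and SSCiPSC 1 gene, Lama1, was called without a trend and with 1 locus per gene, and none in the other alternatives. Median-ratio scaling moved the median log2 fold change of all loci by 0.20 in SSCiPSC and 0.19 in fiPSC against SSC. Quantile normalization reversed Lamc1 against SSC in SSCiPSC (-0.21) and fiPSC (-0.38) and Nid1 in SSCiPSC (-0.72), and gave -2.30 for Sparc, -4.33 for Col4a1 and 1.76 for Fn1 in SSCiPSC. Between the iPSC groups, Hspg2 was reversed without SSCiPSC replicate 2 (from -0.33 to 0.16 with a library left out), Fn1 without SSCiPSC replicate 3 (from -0.35 to 0.015), and the ratio of Col4a1 to Col4a2, with a main difference of -0.12, lay from -0.27 to 0.094 with a library left out and was reversed without fiPSC replicate 2 or SSCiPSC replicate 3 (0.00022). The cause was not tested.

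Loci called in SSCiPSC against SSC numbered 18396, in fiPSC against SSC 19680 and in fiPSC against SSCiPSC 23. With a mean of at least 5 FPKM they were 9707, 10158 and 11, and with 1 locus per gene 7536, 7919 and 7, where fewer loci were tested. Loci called between the iPSC groups numbered 11 with all 9 libraries in the fit and from 6 to 20 with a library left out. Replicate numbers did not pair the libraries, since the correlation of deviations from the group means was from -0.236 to 0.024 over 9 pairs of the same number. With the replicate block, 16926, 17546 and 6 loci were called, with 4 of 8, 8 of 10 and 0 of 8 of the genes.

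SSC libraries were shallower, so a level near 0 says less there. Fragments behind Nid1 in SSC were estimated at 58.4 to 212 and behind Col4a2 in fiPSC at 21.9 to 34.9.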
